A study of Mus musculus with 4 samples.

Results

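Genes of iron storage, iron export and heme breakdown were followed in popliteal lymph nodes (PLNs), the nodes that drain the mouse ankle, on 4 Visium capture areas. They were listed by name, for their known roles, with earlier results of these data known: Fth1, Ftl1, Slc40a1, Hmox1, Slc11a1, Tfrc, Hamp, Cp, Ireb2 and Aco1, 10 of 32287 genes counted. Each had at least 1 UMI (a captured RNA molecule, counted once) on 4 of 4 areas. All mice were male and of C57BL/6 background. The WT area held 10 PLNs of 5 wild-type mice aged 5.5 months. The Early area held 6 PLNs of 3 TNF-Tg mice aged 5.5 months with early arthritis, and Advanced areas 1 and 2 each held 6 PLNs of 3 TNF-Tg mice aged 8.5 to 9 months with advanced arthritis. The TNF-Tg mice came from a single line with 1 copy of the TNF transgene, and males only were used because TNF-Tg females die early. Stage of arthritis cannot be told apart from age in this design. Evans blue dye had been injected into the hindpaw of the mice to find the nodes. WT and Early had 1 area each, no table assigned spots to single nodes, and 1 spot can cover several cells.

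Iron enters cells mainly as transferrin-bound iron through the transferrin receptor and, in macrophages, also as heme from engulfed red cells. Heme oxygenase opens the heme ring and frees its iron, which is then either stored inside the ferritin shell, built of heavy and light chains, or exported through ferroportin. Hepcidin, a peptide hormone made chiefly by the liver, binds ferroportin and leads to its loss from the membrane. Macrophages of spleen, liver and lymph node sinuses are known for this recycling. The RNA-binding proteins IRP1 and IRP2 bind a short hairpin called the iron-responsive element (IRE) when iron is scarce, which blocks translation of ferritin and ferroportin and stabilizes the mRNA of the transferrin receptor.

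The hairpins are shown because the mRNAs of ferritin, ferroportin and the transferrin receptor are known to be controlled through them after transcription. For ferritin and ferroportin this is a block of translation, which mRNA counts do not measure. For the transferrin receptor it is the stability of the mRNA, which can change its counts. Matching letters are a description and not a tested site. They were searched in the annotated UTRs of GRCm38 as a C bulge, 5 paired bases and the loop CAGTGN, on the strand of the transcript only, and capitals mark the bulge and the loop.
Fth1 5′ UTR, chr19:9982732-9982760, plus strand: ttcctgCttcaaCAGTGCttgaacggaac
Ftl1 5′ UTR, chr7:45459779-45459807, minus strand: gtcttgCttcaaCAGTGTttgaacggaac
Slc40a1 5′ UTR, chr1:45925465-45925493, minus strand: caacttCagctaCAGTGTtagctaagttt
Tfrc 3′ UTR, chr16:32631219-32631247, plus strand: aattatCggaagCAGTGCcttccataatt
Tfrc 3′ UTR, chr16:32631598-32631626, plus strand: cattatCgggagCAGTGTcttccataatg
Tfrc 3′ UTR, chr16:32631663-32631691, plus strand: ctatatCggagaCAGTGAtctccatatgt
Tfrc 3′ UTR, chr16:32631710-32631738, plus strand: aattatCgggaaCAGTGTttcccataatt
Such a hairpin stood in the 5′ UTRs of 31 of 20899 genes (0.148%) and in the 3′ UTRs of 129 of 21685 genes (0.595%), while the loop with its bulge but without the paired bases stood in 12.0% and 34.7%. No match was found in the UTRs of the other 6 genes by these letters.

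The areas held from 833 to 2015 spots and from 1808678 to 5180493 UMIs. Levels are given as UMIs per 10000 UMIs of the same area or bin, with exact Poisson 95% intervals that cover counting error only. They compare 1 gene between samples, and levels of different genes are not compared since capture at the 3′ end differs between genes. On WT, Early and Advanced 2 most UMIs came from spots at the edge of the tissue, here spots with fewer than 6 neighbouring spots over tissue. Edge spots were 30.4% of spots on WT, 32.1% on Early, 15.6% on Advanced 1 and 22.6% on Advanced 2 but held 79.3%, 75.7%, 47.9% and 64.5% of the UMIs. B cell, T cell and lymphatic endothelial markers (6 of 6 each) were detected on every area. Detection needs only 1 molecule, so it cannot tell a PLN from another lymph node. Fewer cells of a type and less RNA per cell cannot be told apart in such sums. The lists of markers and pathway genes were chosen with earlier results of these data known.

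**Figure D1:**
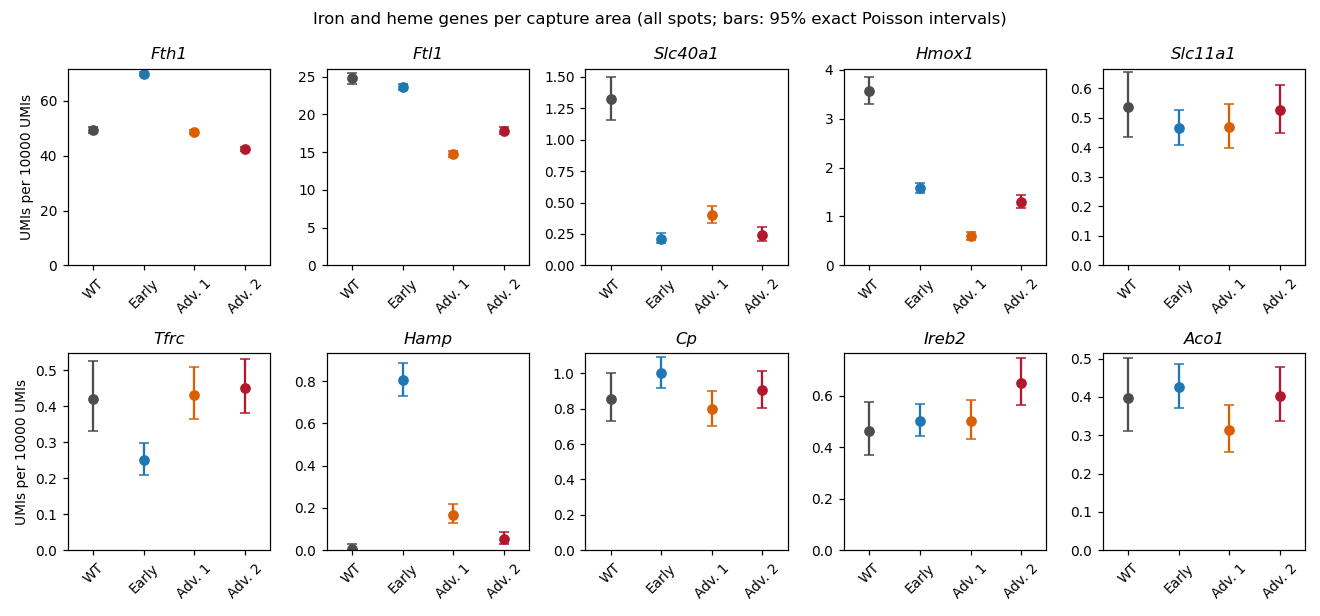
Levels of the 10 genes per capture area, in UMIs per 10000 UMIs over all spots of the area. Points are areas and bars are 95% exact Poisson intervals. Slc40a1 and Hmox1 were highest on WT (1.32 and 3.57), Fth1 and Hamp on Early (69.6 and 0.805), while Slc11a1 and Aco1 lay close together on the 4 areas.

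The heavy ferritin chain Fth1 (ENSMUSG00000024661), which oxidizes iron on its way into the shell, was the ninth most counted gene of the series. It took 49.3 of every 10000 UMIs on WT, 69.6 on Early, 48.7 on Advanced 1 and 42.4 on Advanced 2. Early stood above the other areas, WT and Advanced 1 were indistinguishable by their counting error (ratio 0.989, interval 0.964 to 1.01), and the Early level was 1.41 times that of WT (interval 1.38 to 1.45). The Advanced areas lay below Early by a log2 difference of -0.69 (SE 0.11, adjusted p = 1.1e-07, edgeR quasi-likelihood test over 13102 genes). The test takes the spread from the 2 Advanced areas alone and assumes that the lone Early and WT areas vary in the same way. Of all genes tested, 0.664% were called lower and 0.496% higher in this comparison. DESeq2 did not call Fth1 (adjusted p = 1), nor did edgeR in the spots of the tissue edge alone (log2 difference -0.40, adjusted p = 0.993) or of the interior alone (log2 difference -0.90, adjusted p = 0.379).

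The light ferritin chain Ftl1 (ENSMUSG00000050708, chromosome 7 of GRCm38 from 45457944 to 45459884), which helps form the iron core, followed another order. It took 24.8 of every 10000 UMIs on WT, 23.6 on Early, 14.8 on Advanced 1 and 17.8 on Advanced 2, so that both Advanced areas lay below WT and Early. The log2 difference was -0.61 against Early (SE 0.13, adjusted p = 0.000448) and -0.72 against WT (SE 0.13, adjusted p = 4.74e-06), both from edgeR. DESeq2 called neither, and neither was called in edge spots or interior spots alone by edgeR (adjusted p = 0.704 and 0.733 against Early, 0.051 and 0.917 against WT). Its reads can be shared with the near-identical pseudogene copy Ftl1-ps1 and with overlapping annotated transcripts, so that the level of Ftl1 carries that uncertainty. Ftl1-ps1 itself was not called over whole areas. Its log2 difference for the Advanced areas was 0.18 against Early (adjusted p = 0.958) and -0.23 against WT (adjusted p = 0.746), both from edgeR.

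Both ferritin chains were higher in spots at the tissue edge. Edge spots were also the deeper ones, and why they held more UMIs was not tested, so that edge against interior compares depth as well as position. Median UMIs per spot at the edge and in the interior were 3166 and 140.5 on WT and 5541 and 156 on Early. They were 2113 and 222 on Advanced 1 and 3263 and 250.5 on Advanced 2. WT and Advanced 1 each had 1 connected piece with at least 20 spots. Edge and interior were thus not assigned to the rim or inside of single nodes. Fth1 took 52.6 of every 10000 UMIs at the tissue edge and 36.5 in the interior on WT, 72.4 and 60.9 on Early, 68.2 and 30.8 on Advanced 1 and 46.4 and 35.2 on Advanced 2. Ftl1 took 27.2 and 15.5 on WT, 24.6 and 20.6 on Early, 19.8 and 10.1 on Advanced 1 and 19.1 and 15.4 on Advanced 2. This held for each chain on 4 of 4 areas. With the area as a block, the log2 difference was 0.66 for Fth1 (SE 0.12, adjusted p = 0.00145) and 0.66 for Ftl1 (SE 0.12, adjusted p = 0.00108) in edgeR's test, a comparison that was added after the data were seen. Among all genes, 4.29% were called higher and 3.75% lower at the edge. The 7 fat markers were all higher at the edge (median log2 difference 1.74), as were 4 of 6 B cell and 4 of 5 tested red cell markers, while 3 of 6 T cell markers were lower, and their part in the ferritin difference was not tested. Within macrophage tertiles (defined next) the difference stayed at 0.53 for Fth1 (adjusted p = 6.14e-05) and 0.58 for Ftl1 (adjusted p = 2.38e-06) in edgeR. Hmox1 was not called between edge and interior over the 4 areas (log2 difference -0.13, SE 0.19) but was called lower at the edge without the WT area (-0.49, adjusted p = 0.00849 in edgeR). Advanced 1, where Fth1 fell most from edge to interior, was also the area with the smallest share of edge spots.

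To ask whether the iron genes were found where macrophages are, the spots with at least 500 UMIs (2681 of 6119) were split within each area into tertiles (3 equal parts) by the share of their UMIs from C1qa, C1qb and C1qc, complement genes made by tissue macrophages. A tertile held 118 to 272 spots. The high tertile took from 14.1 to 31.0 C1q UMIs per 10000 over the areas and the low tertile from 0 to 2.31. The tertiles also differed in depth, with medians of 828.5 to 1490.5 UMIs per spot in the low tertile and 2174 to 6374 in the high tertile. They differed in position too: edge spots made up 72.9% of the high and 47.1% of the low tertile on WT. On Early the shares were 45.1% and 55.5%, on Advanced 1 19.1% and 23.1%, and on Advanced 2 28.0% and 37.1%. Macrophage markers outside the rule were higher in the high tertile (8 of 10 tested), and so were 6 of 6 lymphatic endothelial, 5 of 5 fibroblast and 5 of 7 fat markers, whereas 6 of 6 B cell markers were lower. The high tertile thus held more RNA of several cell types than macrophages alone, and the part of these other cells in the results was not tested.

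Of the 10 genes, 5 were higher and 1 was lower in the high than in the low tertile, against 13.8% of all genes tested called higher and 12.8% called lower. Their median log2 difference was 0.70, beside -0.00 over all genes tested.

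**Figure D2:**
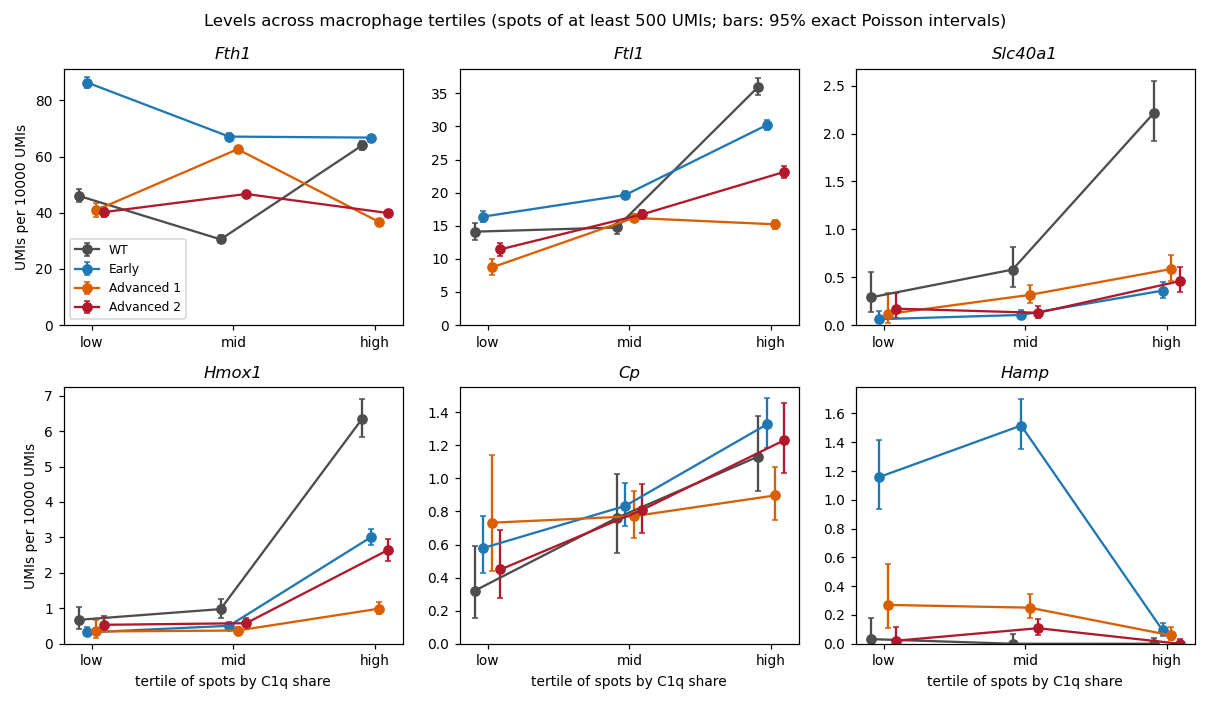
Levels of 6 genes in the low, mid and high tertile of spots by C1q share, in UMIs per 10000 UMIs, for spots with at least 500 UMIs. Lines join the tertiles of 1 area and bars are 95% exact Poisson intervals. Slc40a1 and Hmox1 were highest in the high tertile on every area, most on WT (2.22 and 6.35), and Hamp was lowest there on Early (0.0922).

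Hmox1 (ENSMUSG00000005413, chromosome 8), the inducible heme oxygenase, had the steepest rise of the 10 genes. Its level rose from 0.675 in the low tertile to 6.35 in the high tertile on WT, from 0.320 to 3.00 on Early, from 0.347 to 0.991 on Advanced 1 and from 0.535 to 2.64 on Advanced 2. The mid tertile stayed near the low tertile on each area, at 0.978, 0.507, 0.373 and 0.580, respectively. The log2 difference between high and low tertile was 2.87 (SE 0.20, adjusted p = 2.22e-13 in edgeR's test with the area as a block), and it was called in 16 of 16 settings. The high tertile exceeded the low tertile 9.41-fold on WT (interval 6.10 to 15.3), 9.37-fold on Early (6.34 to 14.5), 2.86-fold on Advanced 1 (1.46 to 6.38) and 4.94-fold on Advanced 2 (3.28 to 7.77). The test of whether this gradient differed between stages gave no call: the log2 difference of gradients was -1.16 for Advanced against Early (SE 0.44, adjusted p = 0.903) and -1.26 for Advanced against WT (SE 0.46, adjusted p = 0.482), from edgeR. No other of the 10 genes was called in it either, with an unadjusted p under 0.05 for 1 of 10 (Hmox1) against Early and 2 of 10 (Hmox1 and Aco1) against WT. DESeq2 called 0 of 10 against Early, where edgeR called 0.0481% of all genes.

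Slc40a1 (ENSMUSG00000025993, chromosome 1), which encodes ferroportin, the only known iron exporter of mammalian cells, rose from 0.289 to 2.22 on WT, from 0.0616 to 0.360 on Early, from 0.116 to 0.586 on Advanced 1 and from 0.171 to 0.459 on Advanced 2. The high tertile was above the low tertile on 4 of 4 areas, by a log2 difference of 2.48 (SE 0.28, adjusted p = 1.57e-08 in edgeR). The low tertiles rest on 3 to 9 UMIs. With shallow spots included, where tertiles are set largely by whether any C1q molecule was seen, the log2 difference was 1.39 (adjusted p = 0.241), the only one of 15 settings in which it was not called.

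Ftl1 rose with the macrophage share and Fth1 did not. Ftl1 went from 14.1 in the low tertile to 36.0 in the high tertile on WT, from 16.4 to 30.2 on Early, from 8.71 to 15.2 on Advanced 1 and from 11.4 to 23.1 on Advanced 2 (log2 difference 1.13, SE 0.14, adjusted p = 1.51e-07 in edgeR, called in 16 of 16 settings). Fth1 went from 46.0 to 64.0 on WT but from 86.3 to 66.8 on Early, from 40.9 to 36.7 on Advanced 1 and from 40.2 to 39.9 on Advanced 2. It was thus higher in the high tertile on WT, lower on Early and Advanced 1 and level on Advanced 2, with a log2 difference of 0.12 over the areas (SE 0.17, adjusted p = 0.664 in edgeR). Fth1 was called higher when tertiles were made from other macrophage genes (log2 difference 0.70) or over all spots (1.26). As a result the light chain gained on the heavy chain: there were 0.307 Ftl1 UMIs per Fth1 UMI in the low tertile and 0.562 in the high tertile on WT, 0.190 and 0.453 on Early, 0.213 and 0.415 on Advanced 1 and 0.284 and 0.579 on Advanced 2. The ratio rose from low to mid to high tertile on 4 of 4 areas, and no interval of a high tertile reached that of the low tertile of the same area.

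**Figure D3:**
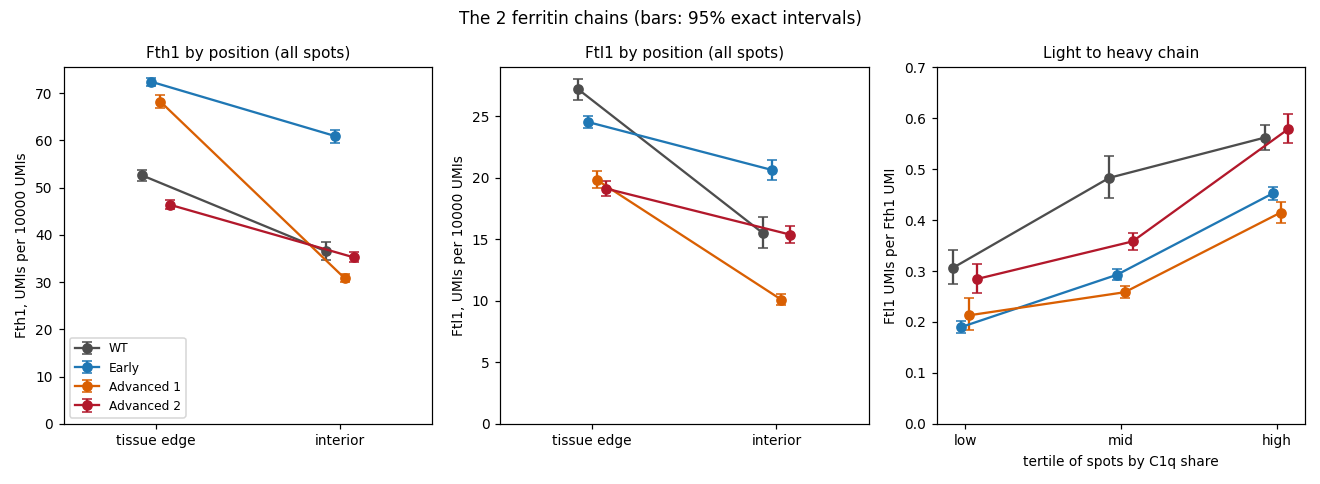
The ferritin chains by position and macrophage share. The left and middle panels show Fth1 and Ftl1 in UMIs per 10000 UMIs at the tissue edge and in the interior, over all spots, and the right panel shows Ftl1 UMIs per Fth1 UMI in the tertiles by C1q share; points are areas and bars 95% exact intervals. Both chains were higher at the edge on 4 of 4 areas, and the light to heavy ratio rose from 0.190 to 0.307 in the low tertile to between 0.415 and 0.579 in the high tertile.

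Cp (ENSMUSG00000003617, chromosome 3), which encodes ceruloplasmin, a copper oxidase that loads exported iron onto transferrin, rose from 0.321 to 1.13 on WT, from 0.579 to 1.33 on Early, from 0.732 to 0.897 on Advanced 1 and from 0.449 to 1.23 on Advanced 2. The log2 difference was 1.27 (SE 0.18, adjusted p = 9.49e-07 in edgeR), with the smallest step on Advanced 1, where the ratio of the tertiles was 1.23 (interval 0.752 to 2.10). Cp overlaps the gene Hps3 on the opposite strand. Slc11a1 (ENSMUSG00000026177, chromosome 1), which encodes NRAMP1, a pump that moves iron out of the phagosome, rose from 0.257 to 0.691 on WT, from 0.333 to 0.624 on Early and from 0.364 to 0.743 on Advanced 2, but went from 0.539 to 0.514 on Advanced 1. It was higher on 3 of 4 areas, with a log2 difference of 0.92 (SE 0.21, adjusted p = 0.000908 in edgeR). Both calls were not made when all spots were used (Cp log2 difference 0.53, Slc11a1 0.99, adjusted p = 0.503 and 0.383 in edgeR).

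The genes of iron uptake and sensing showed no such gradient that passed the test. Tfrc (ENSMUSG00000022797, chromosome 16), the transferrin receptor, went from 0.514 to 0.328 on WT, from 0.247 to 0.189 on Early, from 0.617 to 0.420 on Advanced 1 and from 0.556 to 0.431 on Advanced 2. It was at a lower value in the high tertile on 4 of 4 areas, but each area's interval of the ratio covered 1 and the log2 difference of -0.36 was not called (SE 0.22, adjusted p = 0.255 in edgeR). With tertiles from other macrophage genes Tfrc was called lower (log2 difference -0.71). For Ireb2 (ENSMUSG00000032293, chromosome 9), which encodes IRP2, the log2 difference was 0.08 (SE 0.20, adjusted p = 0.815), and for Aco1 (ENSMUSG00000028405, chromosome 4), whose protein is either a cytosolic aconitase or IRP1, it was 0.48 (SE 0.24, adjusted p = 0.144), both from edgeR. Without the WT area, Aco1 was called higher (0.75, adjusted p = 0.0299 in edgeR).

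**Figure D4:**
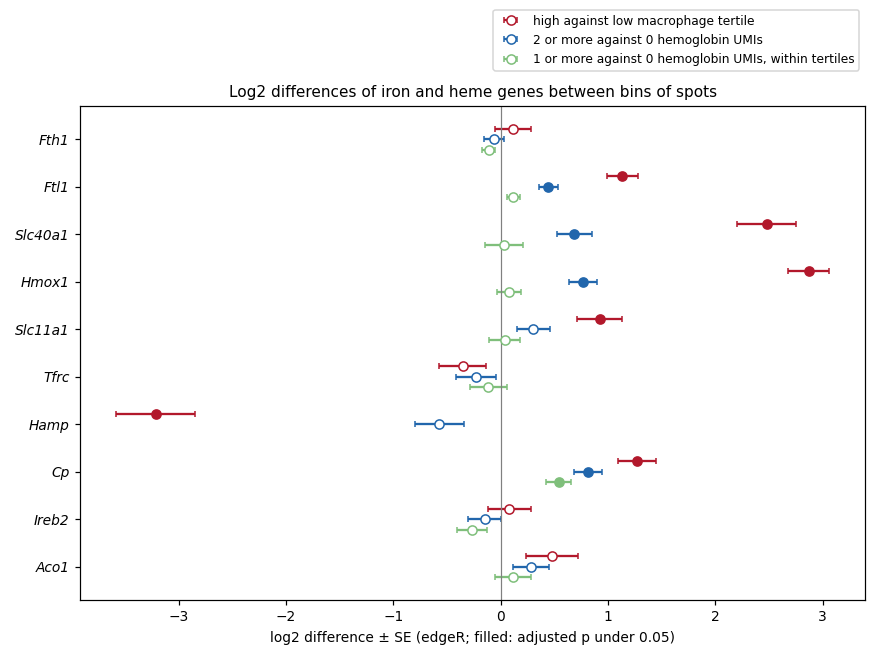
Log2 differences of the 10 genes between bins of spots, with their SE, for high against low macrophage tertile, for 2 or more against 0 hemoglobin UMIs, and for 1 or more against 0 hemoglobin UMIs within tertiles. Filled points had an edgeR adjusted p under 0.05. Hmox1 and Slc40a1 had the largest rises with the macrophage share (2.87 and 2.48), Hamp had the largest drop (-3.22), and Cp alone was called in all 3 comparisons.

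Hemoglobin molecules are the mark of red cells in a spot, and spots were binned by the UMIs of 4 hemoglobin genes. The 65 to 288 spots of an area with 2 or more hemoglobin UMIs had higher Cp (log2 difference 0.81, SE 0.13), Hmox1 (0.76, SE 0.13), Slc40a1 (0.69, SE 0.16) and Ftl1 (0.44, SE 0.09) than the spots without any, with adjusted p from 1.94e-05 to 0.00247 in edgeR's test. For Hmox1 the level was 4.96 against 2.50 on WT and 1.99 against 1.24 on Early, but 0.646 against 0.551 on Advanced 1 and 1.25 against 1.11 on Advanced 2. Among all genes, 11.2% were called higher and 9.08% lower. Spots with hemoglobin were much deeper, with medians of 5187 to 12236 UMIs against 1071 to 2440, and a deep spot has more chances to show a hemoglobin molecule. When every spot was binned on 500 UMIs drawn from it, none of the 4 genes was called: the log2 difference was 0.38 for Cp (adjusted p = 0.18), -0.13 for Hmox1 (adjusted p = 0.738), 0.19 for Slc40a1 (adjusted p = 0.799) and -0.07 for Ftl1 (adjusted p = 0.807), while Fth1 (-0.33, adjusted p = 0.0189) and Hamp (-1.31, adjusted p = 0.0258) were called lower, all from edgeR. Without the Early area Slc40a1 was not called (0.51, adjusted p = 0.0748), and without the WT area Fth1 was called lower (-0.24, adjusted p = 0.0106), both from edgeR. The spots of each area were also split at their median depth, which leaves differences of depth within each part. With these parts as blocks the difference held for Cp (0.70) and Hmox1 (0.58) and not for Slc40a1 (0.51, adjusted p = 0.0739) or Ftl1 (0.08, adjusted p = 0.779, both from edgeR). All 7 fat markers were also higher in the hemoglobin bin (median log2 difference 2.82), and their part was not tested.

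Spots were then compared by both properties at once, with hemoglobin against without it inside each tertile. Only Cp was called, with a log2 difference of 0.54 (SE 0.12, adjusted p = 0.000548 in edgeR), and it was called in 12 of 12 settings. Binning on drawn UMIs, under which Cp was not called without the split into tertiles, was not one of these settings. Whether Cp was higher with hemoglobin at equal depth within tertiles was thus not tested. In the high tertile the Cp level with and without hemoglobin was 1.39 and 0.615 on WT, 1.40 and 1.16 on Early, 0.942 and 0.499 on Advanced 1 and 1.49 and 0.912 on Advanced 2, higher with hemoglobin on 4 of 4 areas. Hmox1 in the same tertile took 7.13 and 4.78 on WT, 3.05 and 2.90 on Early, 0.990 and 0.999 on Advanced 1 and 2.92 and 2.31 on Advanced 2, and its log2 difference over all tertiles was 0.08 (SE 0.11, adjusted p = 0.73 in edgeR). Slc40a1 took 2.22 both with and without hemoglobin in the WT high tertile, and its log2 difference was 0.03 (SE 0.17, adjusted p = 0.947 in edgeR). In this comparison 5.99% of all genes were called higher and 5.27% lower. Hamp had too few UMIs to be tested.

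Between conditions, the genes of export and heme breakdown were higher on WT than on the TNF-Tg areas. Slc40a1 took 1.32 of every 10000 UMIs on WT (interval 1.16 to 1.50), 0.212 on Early (0.174 to 0.256), 0.403 on Advanced 1 (0.338 to 0.476) and 0.244 on Advanced 2 (0.193 to 0.304). WT stood above the 3 TNF-Tg areas with no overlap of intervals, and Early was at 0.161 of the WT level (interval 0.127 to 0.202). The Advanced areas were lower than WT in 3 of the 10 genes (Slc40a1, Hmox1 and Ftl1) and higher in Hamp, which had 1 UMI on WT. The Hamp call was not made at the edge alone (adjusted p = 0.105) or in the interior alone (adjusted p = 0.792) in edgeR, and DESeq2 gave it no adjusted p. For Slc40a1 the log2 difference was -2.14 (SE 0.23, adjusted p = 2.77e-18 in edgeR). This was called in 8 of 8 settings that could be tested, DESeq2 included (adjusted p = 0.000304), and was -2.22 at the tissue edge and -1.62 in the interior. In this comparison 1.34% of all genes were called lower and 0.733% higher.

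Hmox1 took 3.57 on WT, 1.58 on Early, 0.604 on Advanced 1 and 1.30 on Advanced 2, again with WT highest and no overlap of intervals. The Early level was 0.442 of that of WT (interval 0.398 to 0.491), and the Advanced areas were lower than WT by a log2 difference of -2.02 (SE 0.18, adjusted p = 5.46e-25 in edgeR). They were also lower than Early (-0.81, SE 0.18, adjusted p = 0.00248 in edgeR). That difference was -1.48 with Advanced 1 alone and -0.35 with Advanced 2 alone, so that its size rested on which Advanced area was taken, and against WT it was -2.69 and -1.56. Hmox1 also varied within Early, from 0.270 to 2.98 over its 4 connected pieces of tissue with at least 20 spots. The pieces of Advanced 1 (0.605) and Advanced 2 (1.01 and 2.31) lay within that range. Neither the Poisson intervals nor the test against Early covers this spread between pieces. DESeq2 called neither difference of Hmox1 (adjusted p = 0.937 against WT), and in the interior alone the one against WT was -0.97 (adjusted p = 0.201 in edgeR). The one against Early was called in the interior alone (-1.04, adjusted p = 0.0491) and not at the edge alone (-0.73, adjusted p = 0.716), both in edgeR.

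These differences ran beside the macrophage content of the areas. C1q genes took 19.0 of every 10000 UMIs on WT, 11.1 on Early, 7.52 on Advanced 1 and 10.8 on Advanced 2, and 5 of 11 tested macrophage markers were lower and 1 higher on the Advanced areas than on WT. Set against C1q instead of all UMIs, there were 6.94 Slc40a1 UMIs per 100 C1q UMIs on WT (interval 6.06 to 7.92), 1.91 on Early (1.56 to 2.30), 5.35 on Advanced 1 (4.47 to 6.36) and 2.27 on Advanced 2 (1.79 to 2.84). WT and Advanced 1 came close on this scale over whole areas, and Early and Advanced 2 stayed lower. In the macrophage-high tertile they did not come as close, with 7.15 on WT (interval 6.15 to 8.27) and 4.14 on Advanced 1 (3.27 to 5.17). Early had 1.68 and Advanced 2 had 1.97 there. For Hmox1 the values over whole areas were 18.8 on WT, 14.2 on Early, 8.03 on Advanced 1 and 12.1 on Advanced 2, with WT still highest. In the macrophage-high tertile alone, the Advanced areas were lower than WT in Slc40a1 (log2 difference -2.22, SE 0.27, adjusted p = 2.55e-09) and Hmox1 (-1.95, SE 0.31, adjusted p = 8.09e-06), where 0.637% of all genes were called lower in edgeR. DESeq2 called Slc40a1 (adjusted p = 0.0202) and not Hmox1 (adjusted p = 1), whose log2 difference was -2.83 with Advanced 1 alone and -1.39 with Advanced 2 alone. These tertiles were cut within each area, so the high tertiles of the areas differed in C1q share. With tertiles cut over all areas pooled, the log2 difference was -1.93 for Slc40a1 (adjusted p = 8.15e-09 in edgeR). For Hmox1 it was -1.62 (adjusted p = 2.37e-05 in edgeR).

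Within the macrophage-high tertile, Advanced and Early were not parted in any of the 10 genes. Fth1 took 66.8 of every 10000 UMIs on Early, 36.7 on Advanced 1 and 39.9 on Advanced 2, and the log2 difference of -0.86 (SE 0.34) had an unadjusted p of 0.0134 and an adjusted p of 0.785 in edgeR. Unadjusted p was under 0.05 also for Ftl1, Hmox1 and Tfrc, DESeq2 called none, and 0.159% of all genes were called lower. In the macrophage-low tertile, added after the data were seen, Fth1 took 86.3 on Early, 40.9 on Advanced 1 and 40.2 on Advanced 2 and was called (log2 difference -1.18, SE 0.29, adjusted p = 0.0138 in edgeR, 0.283% of all genes called lower). DESeq2 did not call it (adjusted p = 0.205), and with another normalization its adjusted p was 0.0526 in edgeR. The step of Fth1 between stages was not shown to differ between the tertiles (log2 difference 0.32, adjusted p = 0.968 in edgeR). Hamp was called in the low tertile as well (-3.40, adjusted p = 1.88e-07 in edgeR), and not by DESeq2 (adjusted p = 1). It had 94 UMIs there on Early, 7 on Advanced 1, 1 on Advanced 2 and 1 on WT. Hamp thus passed the filter on low counts through Early, the area where it was high, so that this call is no separate support.

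Tfrc was lowest on Early, with 0.251 of every 10000 UMIs (interval 0.210 to 0.298), against 0.420 on WT (0.331 to 0.526), 0.432 on Advanced 1 (0.365 to 0.508) and 0.450 on Advanced 2 (0.380 to 0.530). The Early interval lay below the other 3, at 0.597 of the WT level (interval 0.447 to 0.803), but the log2 difference of Advanced against Early, 0.73 (SE 0.25), did not pass (adjusted p = 0.172 in edgeR). Slc11a1 took from 0.465 to 0.536, Cp from 0.796 to 1.00, Ireb2 from 0.464 to 0.650 and Aco1 from 0.314 to 0.427 over the 4 areas, and none of them was called between conditions. For Slc11a1 the ratio of every pair of areas had an interval that covered 1, for example 0.683 to 1.11 for Early against WT, so that changes of that size are not detectable at this depth.

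Hamp (ENSMUSG00000050440, chromosome 7 from 30942368 to 30944032), the gene of hepcidin, stood out on Early. It had 1 UMI on WT, 417 on Early, 57 on Advanced 1 and 17 on Advanced 2, or 0.00553, 0.805, 0.169 and 0.0532 of every 10000 UMIs. Against the single WT molecule the ratio was 146 for Early (interval 26.0 to 5764), 30.5 for Advanced 1 (5.26 to 1226) and 9.61 for Advanced 2 (1.51 to 402). The Advanced areas were lower than Early by a log2 difference of -2.92 (SE 0.27, adjusted p = 1.41e-24 in edgeR), which DESeq2 called as well (adjusted p = 0.01). Hamp was called at the tissue edge alone (-2.79, adjusted p = 0.00303) and not in the interior alone (-1.81, adjusted p = 0.367, both edgeR). The gene overlaps an annotated RNA, Gm44662, on the opposite strand.

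The Hamp molecules were not spread evenly. On Early they lay in 103 of 1489 spots, 10 spots held 200 of the 417, and 1 spot held 42. Of the Early molecules 93.0% were at the tissue edge, where 75.7% of all UMIs were, and the shares were 66.7% against 47.9% on Advanced 1 and 94.1% against 64.5% on Advanced 2. At the edge Hamp took 0.989 of every 10000 UMIs on Early against 0.230 in the interior, with 0.235 and 0.108 on Advanced 1 and 0.0775 and 0.00881 on Advanced 2, and the log2 difference of edge against interior was 1.92 (SE 0.25, adjusted p = 4.73e-05 in edgeR). It was 1.52 without the Early area (adjusted p = 0.0773 in edgeR). All 4 connected pieces of Early tissue with at least 20 spots held Hamp, from 0.304 to 2.39 of every 10000 UMIs. Pieces are not single nodes, so the number of nodes or mice with Hamp is not known.

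**Figure D5:**
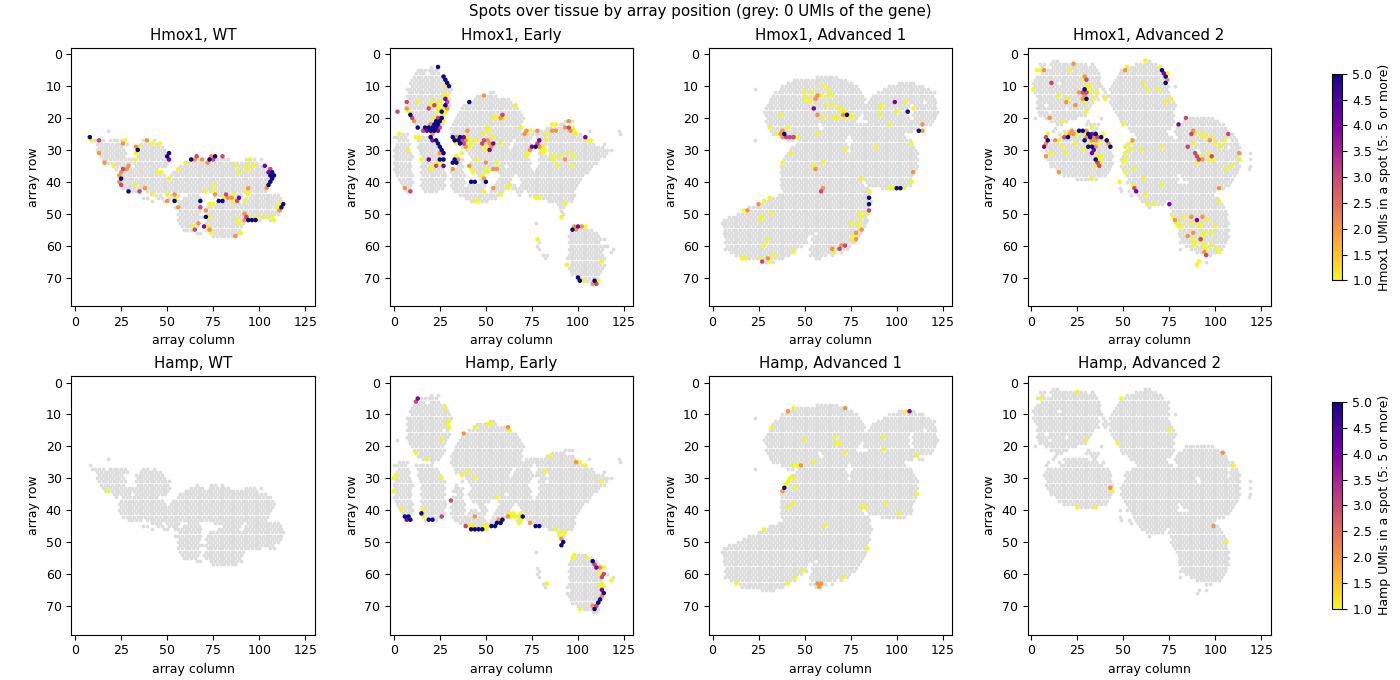
Spots over tissue by row and column of the array, for Hmox1 (upper row) and Hamp (lower row), 1 panel per area. Grey spots had 0 UMIs of the gene and the color gives the UMIs from 1 to 5 or more. Hamp lay in bands along parts of the tissue edge on Early (103 spots) and in scattered spots on Advanced 1 (43 spots) and Advanced 2 (14 spots), with 1 spot on WT.

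Hamp was low in the spots with the most C1q. On Early it took 1.16 in the low tertile, 1.52 in the mid tertile and 0.0922 in the high tertile, and on Advanced 1 0.270, 0.251 and 0.0579. The log2 difference of high against low tertile was -3.22 (SE 0.37, adjusted p = 2.35e-08 in edgeR), called in 10 of 12 settings. Only Early and Advanced 1 had more than 1 UMI in either tertile, the gene passed the filter on low counts through these areas and could not be tested without either of them, and with all spots used the sign turned (log2 difference 1.67, adjusted p = 0.42 in edgeR). Spots with Hamp were deep, with a median of 10738 UMIs on Early beside 414 for all spots. Among spots with at least 500 UMIs, the B cell markers took 45.5 of every 10000 UMIs in spots with Hamp and 29.9 in those without on Early, and 42.0 and 28.2 on Advanced 1. Genes of the same spots were listed after their values were seen: Coch took 5.66 times its level elsewhere on Early (interval 4.64 to 6.93) and 2.04 times on Advanced 1 (1.23 to 3.22), Stra6 5.25 and 7.83 times, the chemokine gene Ccl20 3.05 and 6.45 times, and Cilp 2.72 and 2.15 times. For Ppp1r1a, Ndc1, Adamdec1 and Prnp, the other 4 of the 8 genes listed from Early, the interval on Advanced 1 covered 1.

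Other genes of iron and heme handling were taken as a list of 51, of which 36 had enough UMIs in the macrophage tertiles. There 15 were higher and 2 lower in the high tertile, with a median log2 difference of 0.41, beside 13.8% higher and 12.8% lower over all genes tested. The highest were Trf, the plasma iron carrier transferrin (1.49), Lrp1, a scavenger receptor that takes up heme bound to hemopexin (1.45), Hfe, which tunes hepcidin (1.34), Hp, the hemoglobin-binding haptoglobin (1.17), Spic, a transcription factor of red pulp macrophages (1.00), and Slc48a1, which carries heme out of the phagolysosome (0.93), with adjusted p from 1.37e-10 to 0.000758 in edgeR. The 2 lower were Slc25a37, the mitochondrial iron importer (-1.17), and Ppox, an enzyme of heme synthesis (-0.55). Of 37 tested by hemoglobin, 13 were higher and 2 lower, led by Hp (0.88), Alas1, the first enzyme of heme synthesis (0.87), Trf (0.79), and the neutrophil iron binders Lcn2 (0.71) and Ltf (0.66), then Hfe (0.63), with Slc25a37 (-0.72) and Ppox (-0.54) again the lower ones, beside 11.2% higher and 9.08% lower over all genes. When spots were binned on 500 drawn UMIs, genes called over the whole table went from 1960 to 185, and this list was not counted again there. Within tertiles, 7 of 32 were higher and 1 lower with hemoglobin, beside 5.99% and 5.27% of all genes. Between whole areas, 1 of 44 was higher and 2 were lower on Advanced than on Early (0.496% and 0.664% of all genes), and 3 were higher and 4 lower on Advanced than on WT (0.733% and 1.34% of all genes).

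The genes most like each of the 4 main members were found by the Pearson correlation of log2(UMIs per 10000 + 0.1) over the 12 sums of 4 areas and 3 tertiles, among 5136 genes with at least 500 UMIs. The 12 points share areas, depth and macrophage share, so these are descriptions. Slc40a1 was closest to Wfdc17 (0.976), Adgre1 (0.955), Fcgr3 (0.946), P2ry6 (0.93) and Lgmn (0.925). Hmox1 was closest to Clec4n (0.971), Lyve1 (0.965), Ccl8 (0.962), Tmem51 (0.956) and Ninj1 (0.955), and Ftl1 to Il33 (0.968), Litaf (0.956), Fcer1g (0.951), Ifi30 (0.935) and Ifitm2 (0.935). Fth1 lay apart from these with Arpc1b (0.924), Tbca (0.918), Cox6c (0.909), Atp5j (0.904) and Rpl10 (0.865). Among the members, Hmox1 followed Slc40a1 (0.829) and Ftl1 (0.826), whereas Fth1 followed Ftl1 less closely (0.474) and Hmox1 not at all (0.00538).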

How the data were processed

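Visium libraries of the 4 capture areas were analysed from the deposited UMI counts per gene and spot over tissue. Per the labels, a 10 µm section was permeabilized for 12 minutes, and the submitters' processing notes name Space Ranger 1.1.0, Seurat 4.0.3, R 4.1.1 and mm10/GRCm38. The authors applied no normalization to these counts. Here, UMIs were summed by area and bin (spots with at least 500 UMIs, except whole areas and the edge comparison), since spots are not replicates. Ties in C1q share were ordered by total UMIs. Sums were compared with edgeR 4.0.16 (TMM, filterByExpr, quasi-likelihood test, Benjamini-Hochberg adjustment) in R 4.3.3, with the area as a block for bins. DESeq2 1.42.0 was an alternative. Early and WT were set side by side by exact ratio intervals only. The scripts were tested on simulated data with known differences. Named genes were the 10 members, pathway genes past an adjusted p of 0.05 (at most 6 per direction and comparison) and the 5 genes most alike. Members and lists were chosen with earlier results of these data known, and the tissue edge, tissue piece, C1q-denominator and low-tertile analyses were added after seeing the data. UTRs and coordinates came from GENCODE vM21 (GRCm38). 249 spot barcodes occurred on all 4 areas, as they come from a fixed array.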

Additional observations from a re-analysis of the deposited data

Results flagged for a closer look

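Fth1 went opposite ways on WT and Early between macrophage tertiles, and on WT and the 3 TNF-Tg areas between hemoglobin bins. Between the high and the low macrophage tertile the ratio of its levels was 1.39 on WT (interval 1.31 to 1.48) and 0.773 on Early (0.752 to 0.796), while it was 0.897 on Advanced 1 (0.840 to 0.960) and 0.992 on Advanced 2 (0.939 to 1.05, which covers 1). Between spots with 2 or more hemoglobin UMIs and spots with 0 it was 1.16 on WT, 0.818 on Early, 0.839 on Advanced 1 and 0.695 on Advanced 2. The difference between WT and Early was not tested, since each had 1 area. For the macrophage tertiles, the difference of gradients between Advanced and WT was -0.61 on the log2 scale (SE 0.34, adjusted p = 0.729 in edgeR). For the hemoglobin bins, the difference between Advanced and WT was not tested. Edge spots, where Fth1 was higher, were a larger share of the high than of the low macrophage tertile on WT. On the 3 TNF-Tg areas they were a smaller share, and their part in these ratios was not tested.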

How the results depend on the processing

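No paired analysis between groups was possible because the groups were different mice, and WT and Early had 1 area each. Bins of spots were compared within areas by the area block. In the macrophage tertiles, 3 of the 10 genes were called instead of 6 with all spots (Hamp at 1.67, its sign turned), and genes called over the whole table went from 2770 to 1243 with all spots, 1515 in depth strata, 1794 without the area block and 1609 to 2526 when an area was left out, fewest without Early. By hemoglobin, none of the 4 members called was called with spots thinned for binning (Ftl1 turned to -0.0716 and Hmox1 to -0.13), where 2 others, Fth1 and Hamp, were called lower. Without the area block 1 member was called, and genes went from 1960 to 1065 with DESeq2, 823 in depth strata, 185 thinned, 221 without the area block and 1066 to 1733 with an area left out, fewest without Early. Within tertiles, 2 members were called with all spots, and genes went from 814 to 320 in depth strata and 502 to 632 with an area left out, again fewest without Early. Between Advanced and Early, 1 member was called instead of 4 with DESeq2, at the edge or in the interior, and 7, 18 and 36 genes instead of 152. Against WT, 1, 2 and 1 members were called instead of 4, and 38, 126 and 40 genes instead of 272. In the macrophage-high tertile, genes lower or higher than Early went from 39 to 2 with DESeq2, 1 at a minimum of 1000 UMIs, 12 without immunoglobulin genes and 24 in the interior; against WT, from 92 to 10, 38 at 1000 UMIs and 59 in the interior, with 1 member left by DESeq2. Genes with a stage difference between tertiles went from 5 to 0 with DESeq2, 8 with another size factor, 13 without the filter and 0 at 1000 UMIs. Alternatives that leave an area out change the samples by construction; the cause of the other shifts was not tested. Depth limits the low tertile most, where Slc40a1 had 3 to 9 UMIs.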
